A study of Mus musculus with 12 samples.

Results

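Neuregulins and the ligands related to epidermal growth factor act through the ErbB receptors, which are receptor tyrosine kinases, and 10 genes of this family were followed in the mouse auditory nerve after injury by ouabain. The receptors were Erbb2, Erbb3, Erbb4 and Egfr, and the ligands were Nrg1, Btc, Hbegf, Areg, Ereg and Tgfa. Members were found by symbol: every probe set whose annotated gene symbol is exactly that of a member was taken, which gave 20 probe sets for 9 of the 10 genes, out of 45037 probe sets tested for 18193 genes. Areg is not analysed here. A gene is represented below by the probe set with the highest mean (its brightest), and every other probe set of a member is reported too.

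Ouabain blocks the sodium potassium pump, and it was placed on the round window niche of the right ear at 3 mM for 60 min in CBA/CaJ mice of 8 to 12 weeks and both sexes. The 4 groups were ouabain-treated nerves at 3 days, control nerves at 3 days, ouabain-treated nerves at 7 days and control nerves at 7 days, with 3 Affymetrix whole-genome mouse arrays each. Controls were the left ears, which had no surgery, so the effects of ouabain and of the operation cannot be told apart. Each array held RNA pooled from 2 preparations of the modiolus, the core of the cochlea with the spiral ganglion and the auditory nerve. The pools' animals are not named, so p-values measure only the spread between these pooled samples.

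The values were log2 expression values made by the authors with RMA, on which 1 unit is a doubling. A log2 difference is the mean of the ouabain arrays minus that of the control arrays of the same day. Each probe set was tested with limma, and a call needed both a fold above 1.5 and an adjusted p (Benjamini-Hochberg, over all probe sets) under 0.05. Array medians ran from 6.01 to 6.09 and lower quartiles from 4.26 to 4.38. Values of different probe sets are not comparable as amounts of RNA, since probes differ in brightness.

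As background, ErbB receptors work as pairs. ErbB3 binds neuregulins but has little kinase activity of its own, ErbB2 has kinase activity but no known ligand, and together they form the neuregulin receptor of Schwann cells, on which Schwann cell survival, migration and myelination depend. Neuregulin 1 is displayed by axons, while the epidermal growth factor receptor, Egfr, answers to a separate set of ligands that includes betacellulin (Btc), HB-EGF, TGF-alpha, amphiregulin and epiregulin. ErbB4 can be engaged by neuregulins and by several of the Egfr ligands. Most of these ligands are made as membrane proteins that must be cut by sheddases to be released.

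Start-site sequence was at hand for 6 of the 10 genes, each as 300 bases, 250 before and 50 from the annotated start of the gene, from RefSeq on GRCm38.p6. The windows of the 3 such genes that were higher after ouabain are shown because they let these genes be compared at sequence level. Capitals mark matches to any of 4 motifs searched on both strands: the SOX motif ACAANG (held by 41.2% of all 32851 windows of this length), the TEAD motif GGAATG (14.7%), the Sp1 motif GGGCGG (35.7%) and the AP-1 motif TGANTCA (7.81%).
Btc, chr5:91402945-91403244, minus strand: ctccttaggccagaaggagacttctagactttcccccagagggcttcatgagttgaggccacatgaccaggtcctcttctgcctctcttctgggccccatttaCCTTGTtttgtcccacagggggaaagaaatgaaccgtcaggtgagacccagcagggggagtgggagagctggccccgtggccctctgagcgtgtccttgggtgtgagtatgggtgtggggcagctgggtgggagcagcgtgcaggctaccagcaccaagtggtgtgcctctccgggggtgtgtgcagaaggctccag
Egfr, chr11:16751953-16752252, plus strand: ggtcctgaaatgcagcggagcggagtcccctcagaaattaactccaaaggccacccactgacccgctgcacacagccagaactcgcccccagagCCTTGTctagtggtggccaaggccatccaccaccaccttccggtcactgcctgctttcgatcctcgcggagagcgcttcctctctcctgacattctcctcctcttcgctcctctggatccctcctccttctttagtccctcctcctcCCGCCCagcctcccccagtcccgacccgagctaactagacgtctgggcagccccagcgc
Erbb2, chr11:98412234-98412533, plus strand: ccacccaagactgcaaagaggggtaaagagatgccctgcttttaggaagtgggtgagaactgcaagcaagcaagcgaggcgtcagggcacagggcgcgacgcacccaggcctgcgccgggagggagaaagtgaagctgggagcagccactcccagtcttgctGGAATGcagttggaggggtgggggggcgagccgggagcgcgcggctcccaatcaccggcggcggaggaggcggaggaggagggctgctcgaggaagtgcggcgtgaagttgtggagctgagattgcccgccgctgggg
The Btc window held 1 SOX match, starting 147 bases before the start site, and no other match. The Egfr window held 1 SOX match 156 bases and 1 Sp1 match 9 bases before the start site, and the Erbb2 window held 1 TEAD match 88 bases before it. No capitals overlap between motifs, and the AP-1 letters are in none of the 3 windows. The share of G and C bases was 60.3% for Btc, 62.3% for Egfr and 66% for Erbb2, against a median of 52.7% over all windows. CpG dinucleotides numbered 5, 15 and 21 in the same order, against a median of 7.

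Of the 20 member probe sets, 5 were called at 3 days, 4 of them higher and 1 lower, and 8 at 7 days, 7 of them higher and 1 lower. Over all probe sets 12.3% were called at 3 days (5.71% up, 6.58% down) and 12.7% at 7 days (6.14% up, 6.51% down). By gene, Btc and Erbb3 were higher at both days, Hbegf was higher at 3 days by 1 of its 2 probe sets, Egfr and Erbb2 were higher at 7 days, and Nrg1 was lower at both days. Erbb4, Ereg and Tgfa were not called. All 3 ouabain arrays stood above all 3 control arrays for 7 of the 20 probe sets at 3 days (19.6% of all probe sets) and for 11 at 7 days (21.4%), and below them for 1 (17.4%) and 2 (16.9%). The median log2 difference of the members was 0.18 at 3 days and 0.27 at 7 days, against 0.02 and 0.03 over all probe sets. The tissue was taken whole, so fewer cells of a type and less RNA per cell cannot be told apart in any of these values.

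**Figure D1:**
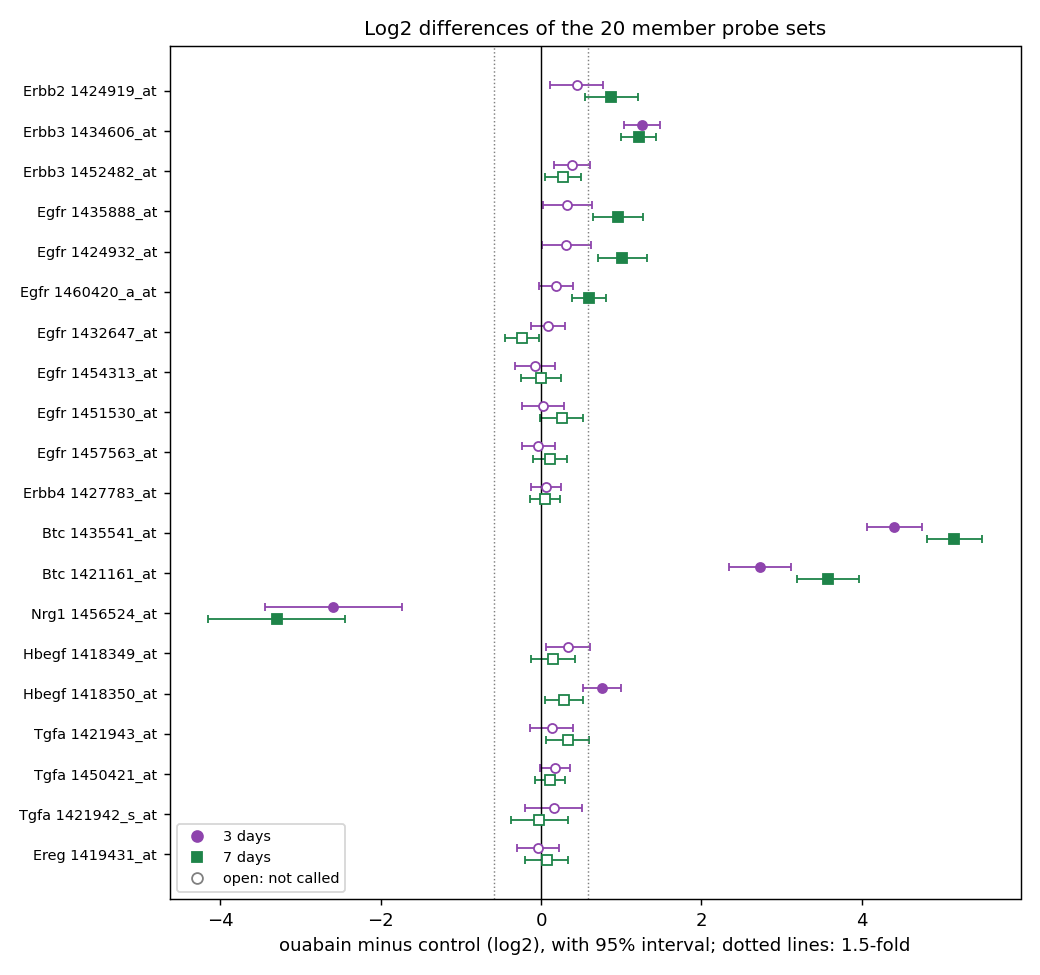
Log2 difference, ouabain minus control, of each of the 20 member probe sets (rows) at 3 days (circles) and 7 days (squares), with the 95% interval of the limma model as whiskers; filled points were called and dotted lines mark a 1.5-fold change. Btc lies far to the right, between 2.73 and 5.15, Nrg1 is the only member to the left of the dotted lines, and Erbb4 and Ereg sit at 0.

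Markers of the cell types of the tissue were read on the same arrays, and the part of cell content in the values of the members was not tested. Of 20 neuron markers, 17 were lower at each day, and their summed linear values were 12300 to 29100 in ouabain arrays and 76700 to 81300 in control arrays at 3 days, and 7760 to 16700 in ouabain arrays and 70900 to 79800 in control arrays at 7 days. Replicate 1 of each ouabain group kept more neuron signal than the others, with a median over the 20 markers of -1.22 at 3 days, against -2.74 and -2.66, and of -2.10 at 7 days, against -3.48 and -3.80, each as a log2 difference from the mean of that day's controls. Control replicate 1 at 7 days stood apart in markers of dividing cells, with a median 1.32 above its group mean. It was also the highest of its group in the 7 neutrophil and marrow markers, with a median of 1.41, against 0.05 and -1.44 in the other controls of that day. The tissue carried the Schwann cell markers of the auditory nerve on every array, and 6 of 9 markers of Schwann cells of any stage were higher at each day. Of 10 markers of myelinating Schwann cells, 4 were lower and 1 higher at 3 days and 6 were lower at 7 days, and their summed linear values were 32300 to 33300 in ouabain arrays and 40700 to 42500 in control arrays at 3 days, and 23700 to 26900 in ouabain arrays and 39100 to 39900 in control arrays at 7 days. Of 11 markers of repair Schwann cells, the form that follows nerve injury, 6 were higher and 1 lower at 3 days and 7 were higher and 1 lower at 7 days, and the sums were 10500 to 12800 in ouabain arrays and 3990 to 4550 in control arrays at 3 days, and 9850 to 11500 in ouabain arrays and 4030 to 4320 in control arrays at 7 days. Macrophage markers were higher after ouabain for 14 of 14 genes at 3 days and 13 of 14 at 7 days.

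Among the receptors, Erbb3 was higher at both days. Its brighter probe set, 1434606_at, read 11.96, 12.13 and 12.29 in ouabain-treated nerves at 3 days, against 10.82, 10.85 and 10.93 in control nerves. At 7 days it read 11.51, 11.66 and 11.82 in ouabain-treated nerves, against 10.42, 10.50 and 10.44 in control nerves. The groups were separated by more than the spread within either group at both days. The control arrays of 7 days all read lower than those of 3 days. The log2 difference was 1.26 (SE 0.10, adjusted p = 4.37e-06), a 2.39-fold change, at 3 days and 1.22 (SE 0.10, adjusted p = 5.25e-06), a 2.32-fold change, at 7 days. The second probe set, 1452482_at, is dim, with a group mean of at most 5.22, and its differences were 0.39 (adjusted p = 0.0165) and 0.28 (adjusted p = 0.074), under the 1.5-fold threshold on both days. Its ouabain arrays were above all control arrays at each day. The summed linear values of the 9 Schwann cell markers, read on the same arrays, were 35300 to 37700 in ouabain arrays and 24400 to 25300 in control arrays at 3 days, and 33100 to 37200 in ouabain arrays and 22700 to 26400 in control arrays at 7 days, and neither their part in the Erbb3 difference nor that of the myelinating and repair lists, which moved in opposite directions, was tested. Erbb3 and the median of the 9 markers, each as a difference from the day's controls, had a Pearson's r of 0.95 over 12 arrays and 0.34 over the 6 ouabain arrays, as a description.

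Erbb2, the partner of ErbB3, has 1 probe set, 1424919_at, and was called at 7 days. It read 7.86, 7.92 and 8.15 in ouabain-treated nerves at 3 days, against 7.33, 7.34 and 7.92 in control nerves. The third control array reached the ouabain values, so the groups overlapped at this day. The 7-day values were 7.99, 8.16 and 8.10 in ouabain-treated nerves, against 7.03, 7.28 and 7.31 in control nerves, with no overlap. The log2 difference was 0.44 (SE 0.15, adjusted p = 0.0542) at 3 days, and 0.88 (SE 0.15, adjusted p = 0.00113), a 1.83-fold change, at 7 days. The 3-day result turned on control replicate 3: without it the difference was 0.64 and passed (adjusted p = 0.0027). The change of the response between the days was 0.43 (95% interval -0.04 to 0.90, adjusted p = 0.439), so the later call does not show a larger response at 7 days. With the median of the 9 Schwann cell markers of any stage, r was 0.72 for Erbb2 over 12 arrays and -0.55 over the 6 ouabain arrays.

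Egfr, the receptor of betacellulin and the other EGF-related ligands, was measured by 7 probe sets, and the 3 brightest were called at 7 days. The brightest, 1435888_at, read 9.83, 9.56 and 9.61 in ouabain-treated nerves at 3 days, against 9.62, 9.35 and 9.04 in control nerves. At 7 days it read 10.35, 10.17 and 10.37 in ouabain-treated nerves, against 9.15, 9.42 and 9.44 in control nerves. The values overlapped at 3 days and were fully apart at 7 days. The log2 difference was 0.33 (SE 0.14, adjusted p = 0.129) at 3 days and 0.96 (SE 0.14, adjusted p = 0.000368), a 1.94-fold change, at 7 days. For 1424932_at the 7-day values were 9.09, 9.04 and 9.36 in ouabain-treated nerves and 7.99, 8.16 and 8.30 in control nerves, a difference of 1.01 (adjusted p = 0.00021), against 0.32 at 3 days (adjusted p = 0.139). For 1460420_a_at the 3-day difference was 0.18 (adjusted p = 0.225) and the 7-day difference 0.60 (adjusted p = 0.000689). This last call rests on the fold threshold, since without ouabain replicate 3 or control replicate 2 at 7 days the difference was 0.57 or 0.58, just under 1.5-fold.

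The other 4 Egfr probe sets were dimmer and none was called. Their differences were between -0.08 and 0.09 at 3 days and between -0.23 and 0.26 at 7 days. Probe set 1432647_at had its 3 ouabain arrays below the 3 control arrays at 7 days, with 5.24, 5.34 and 5.19 in ouabain-treated nerves and 5.52, 5.57 and 5.37 in control nerves, so the Egfr probe sets did not all point the same way. Probe sets 1454313_at and 1457563_at differed by at most 0.11 at either day. Among other cell types on the same arrays, 3 of 8 fibroblast markers and 2 of 7 epithelial markers were called higher at 7 days, against 1 and 0 at 3 days. The summed linear values of the 7 epithelial markers were 8570 to 9980 in ouabain arrays and 6660 to 8010 in control arrays at 7 days, and those of the 8 fibroblast markers were 48200 to 54500 in ouabain arrays and 33600 to 35100 in control arrays. At 3 days the fibroblast sums were 43100 to 46700 in ouabain arrays and 32500 to 36500 in control arrays. The epithelial sums of that day overlapped. At 7 days no endothelial or bone cell marker was called, but their sums were also higher in all ouabain arrays. They were 5570 to 7060 against 3730 to 5440 for endothelial cells, and 11000 to 13800 against 7760 to 9490 for bone cells. The part of these lists in the Egfr difference was not tested.

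**Figure D2:**
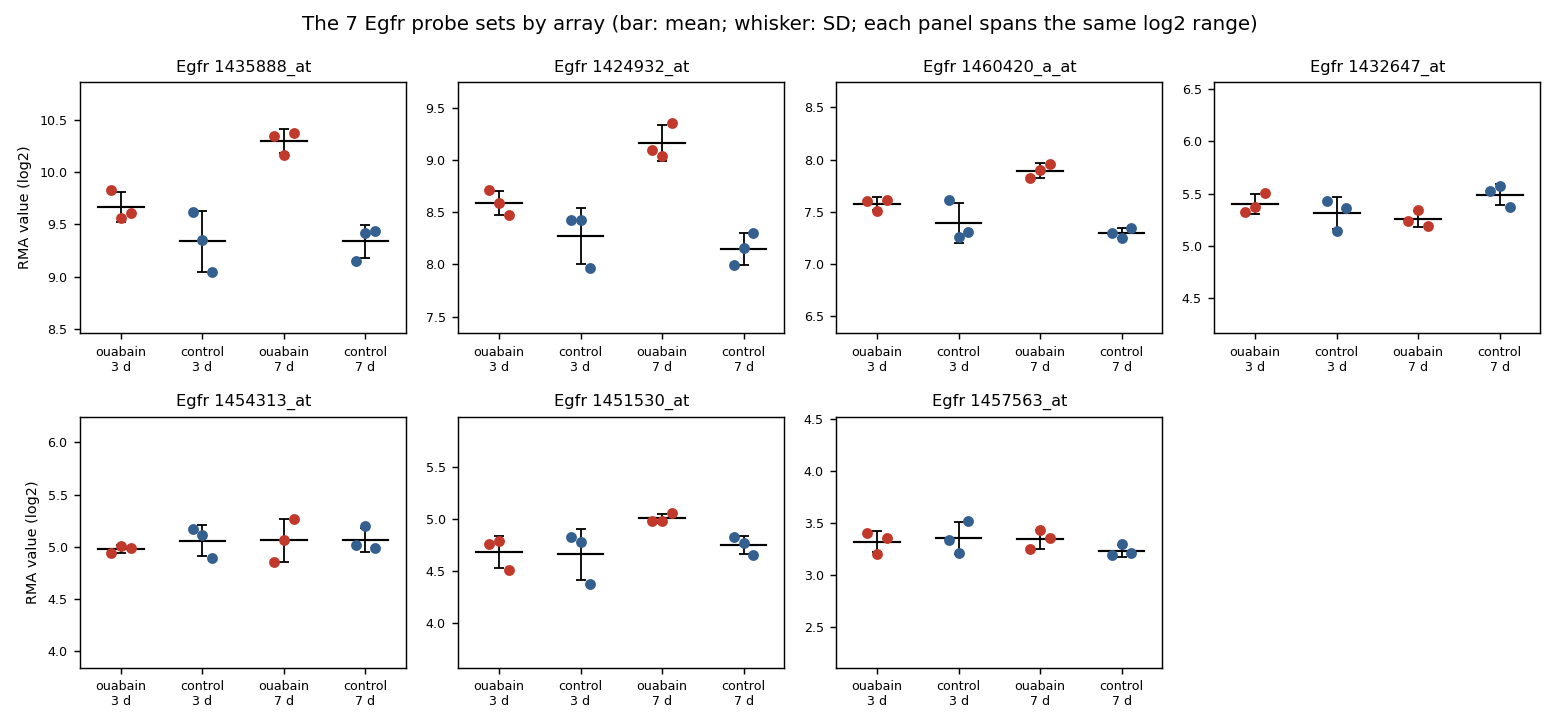
RMA value (log2) of the 7 Egfr probe sets by array, 1 panel each, brightest first, with ouabain arrays in red and control arrays in blue at 3 days and then 7 days; bars are means and whiskers SDs over 3 arrays. In the first 3 panels the ouabain arrays at 7 days stand clear of the 7-day controls, and in the last 4 panels the differences stay at or under 0.26.

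Erbb4, the receptor shared by neuregulins and part of the EGF-related ligands, read between 2.94 and 3.22 on all 12 arrays with its 1 probe set, 1427783_at. This is below the lower quartile of every array, and the mean stands at percentile 3.05 of all probe sets. The difference was 0.06 (95% interval -0.12 to 0.25) at 3 days and 0.05 (95% interval -0.14 to 0.23) at 7 days. A change in RNA that stays below what this probe set can detect would not appear in these values.

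Of the ligands, Btc had the largest difference among all members. Its probe set 1435541_at read 9.18, 8.88 and 9.17 in ouabain-treated nerves at 3 days, against 4.72, 4.31 and 4.98 in control nerves. At 7 days it read 9.67, 9.90 and 10.04 in ouabain-treated nerves, against 4.67, 4.73 and 4.76 in control nerves. Control nerves lay near the lower quartile of the arrays and ouabain-treated nerves above the upper quartile. The log2 difference was 4.41 (SE 0.16, adjusted p = 1.74e-08) at 3 days and 5.15 (SE 0.16, adjusted p = 3.7e-09) at 7 days, or 21.2-fold and 35.6-fold. The control values are close to the dim end of the scale, where RMA values change less than the RNA does, so the folds are uncertain in size.

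The dimmer Btc probe set, 1421161_at, moved in the same direction on every array. It read 6.05, 5.95 and 6.72 in ouabain-treated nerves and 3.38, 3.69 and 3.45 in control nerves at 3 days, and 6.93, 6.62 and 6.98 in ouabain-treated nerves and 3.23, 3.32 and 3.25 in control nerves at 7 days. Its log2 differences were 2.73 (adjusted p = 9.67e-07) and 3.58 (adjusted p = 1.77e-07). The response at 7 days exceeded that at 3 days by 0.75 (95% interval 0.27 to 1.23, adjusted p = 0.155) for 1435541_at and by 0.84 (95% interval 0.29 to 1.39, adjusted p = 0.16) for 1421161_at, and neither passed. Without ouabain replicate 3 at 3 days the change of 1421161_at was 1.08 and passed (adjusted p = 0.0229). The 14 macrophage markers summed to 25300 to 31000 in ouabain arrays and 5580 to 7450 in control arrays at 3 days, and to 24300 to 26400 in ouabain arrays and 6490 to 7450 in control arrays at 7 days, and neither their part in the Btc difference nor that of the Schwann cell lists was tested. Both the any-stage and the repair Schwann cell sums given above were also higher in all ouabain arrays. For Btc, r with the median macrophage marker was 0.98 over 12 arrays and 0.09 over the 6 ouabain arrays, and with the median any-stage Schwann cell marker 0.91 and -0.59.

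On chromosome 5 Btc is the last of 4 ligand genes of the EGF family that follow one another without another protein-coding gene between them in RefSeq, in the order Epgn, Ereg, Areg and Btc. Neither measured neighbour was called. Ereg, which encodes epiregulin, read between 2.82 and 3.33 on all 12 arrays with probe set 1419431_at, at percentile 1.80 of all probe sets, and differed by -0.03 (95% interval -0.30 to 0.23) at 3 days and 0.07 (95% interval -0.19 to 0.34) at 7 days. Epgn, which encodes epigen, differed by 0.13 (adjusted p = 0.446) at 3 days and -0.25 (adjusted p = 0.092) at 7 days.

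Nrg1, the neuregulin that axons present to Schwann cells, was the only member that was called lower. It has 1 probe set, whose values in whole tissue do not show which forms of the transcript or which cells they came from. Probe set 1456524_at read 7.46, 6.01 and 5.65 in ouabain-treated nerves at 3 days, against 9.08, 9.02 and 8.79 in control nerves. At 7 days it read 6.04, 5.02 and 5.38 in ouabain-treated nerves, against 9.12, 8.44 and 8.77 in control nerves. The highest ouabain array stood well below the lowest control array at each day, and replicate 1 was the highest of the ouabain arrays at both. The log2 difference was -2.59 (SE 0.39, adjusted p = 0.000388) at 3 days and -3.30 (SE 0.39, adjusted p = 6.55e-05) at 7 days, a change of 6.02-fold and 9.82-fold. Without replicate 1 of the ouabain group the difference was -3.13 at 3 days and -3.58 at 7 days.

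The Nrg1 values followed the neuron markers over the arrays. Relative to the mean of the day's controls, Nrg1 stood at -1.51, -2.95 and -3.31 in ouabain replicates 1 to 3 at 3 days, where the median neuron marker stood at -1.22, -2.74 and -2.66. At 7 days Nrg1 stood at -2.73, -3.76 and -3.40, where the median neuron marker stood at -2.10, -3.48 and -3.80. The array with the smallest loss of neuron markers in each group also had the smallest loss of Nrg1, while the other ouabain arrays stood in the reverse order at both days. Pearson's r was 0.98 over 12 arrays and 0.91 over the 6 ouabain arrays (Spearman's rho 0.89), which is a description, since the arrays share the treatment and the normalization. Nrg3, a neuregulin of neurons whose receptor is ErbB4, was also lower, with 5.66, 4.20 and 4.06 in ouabain-treated nerves and 7.54, 7.68 and 7.36 in control nerves at 3 days. At 7 days Nrg3 read 4.04, 3.72 and 3.73 in ouabain-treated nerves and 7.36, 6.92 and 7.19 in control nerves. Its differences were -2.89 (adjusted p = 4.24e-05) and -3.33 (adjusted p = 1.51e-05), and its second probe set was not called at either day. All ouabain values of Nrg3 but that of replicate 1 at 3 days lay under the lower quartile of their arrays, so the sizes of these differences are uncertain. For Nrg3, r with the median neuron marker was 0.97 over 12 arrays and 0.84 over the 6 ouabain arrays (Spearman's rho 0.60). The part of the neuron markers in the Nrg1 and Nrg3 differences was not tested.

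**Figure D3:**
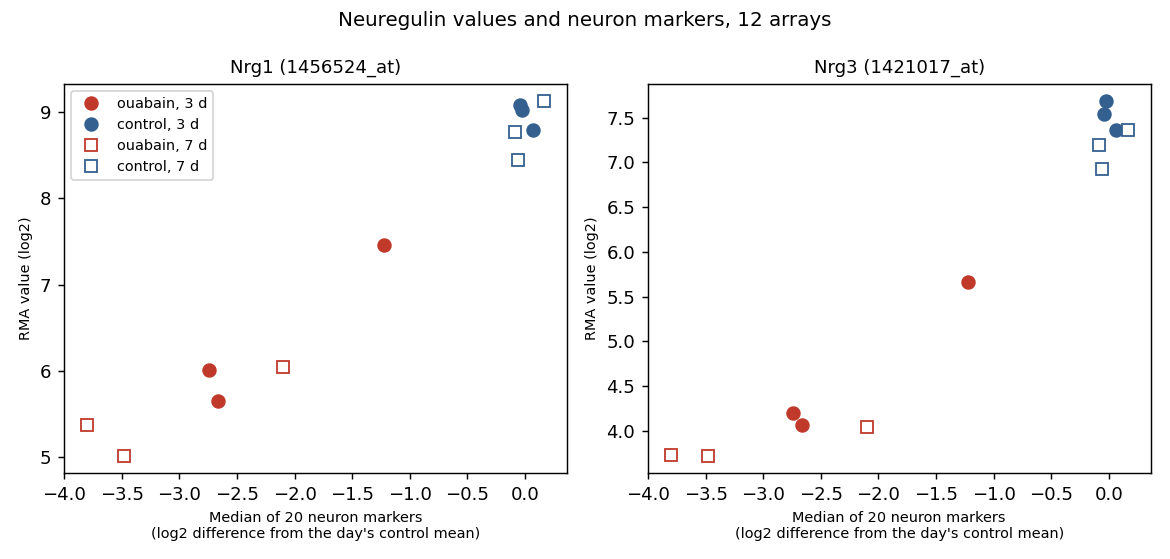
RMA value (log2) of Nrg1 (left) and Nrg3 (right) against the median of 20 neuron markers on the same array, as a log2 difference from the mean of the day's controls; red points are ouabain arrays and blue points control arrays, filled circles 3 days and open squares 7 days. Ouabain replicate 1 at 3 days, at -1.22 on the horizontal axis, lies between the other ouabain arrays and the controls in both panels.

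Hbegf, which encodes the heparin-binding ligand HB-EGF, was called at 3 days by 1 of its 2 probe sets. Probe set 1418350_at read 7.87, 7.93 and 7.85 in ouabain-treated nerves at 3 days, against 7.03, 7.35 and 6.99 in control nerves. Its 7-day values were 7.57, 7.56 and 7.73 in ouabain-treated nerves, against 7.20, 7.48 and 7.31 in control nerves. The groups did not overlap at either day, but came close at 7 days. The log2 difference was 0.76 (SE 0.11, adjusted p = 0.000255), a 1.70-fold change, at 3 days and 0.29 (SE 0.11, adjusted p = 0.0724) at 7 days. The brighter probe set, 1418349_at, differed by 0.34 (adjusted p = 0.0739) and 0.15 (adjusted p = 0.443), so the call rests on the dimmer of the pair. The response of 1418350_at was 0.47 lower at 7 days than at 3 days (95% interval of the change -0.81 to -0.14), which did not pass (adjusted p = 0.199).

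Tgfa, which encodes TGF-alpha, was not called by any of its 3 probe sets. The brightest, 1421943_at, read 10.01, 9.97 and 9.88 in ouabain-treated nerves at 3 days and 9.77, 10.07 and 9.63 in control nerves. The 7-day values were 10.12, 10.19 and 10.34 in ouabain-treated nerves and 9.69, 10.00 and 9.96 in control nerves, where the ouabain arrays lay just above the controls. The differences were 0.13 (95% interval -0.13 to 0.40) at 3 days and 0.33 (95% interval 0.07 to 0.60, adjusted p = 0.0665) at 7 days. The other probe sets, 1450421_at and 1421942_s_at, differed by between -0.02 and 0.18 at either day.

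**Figure D4:**
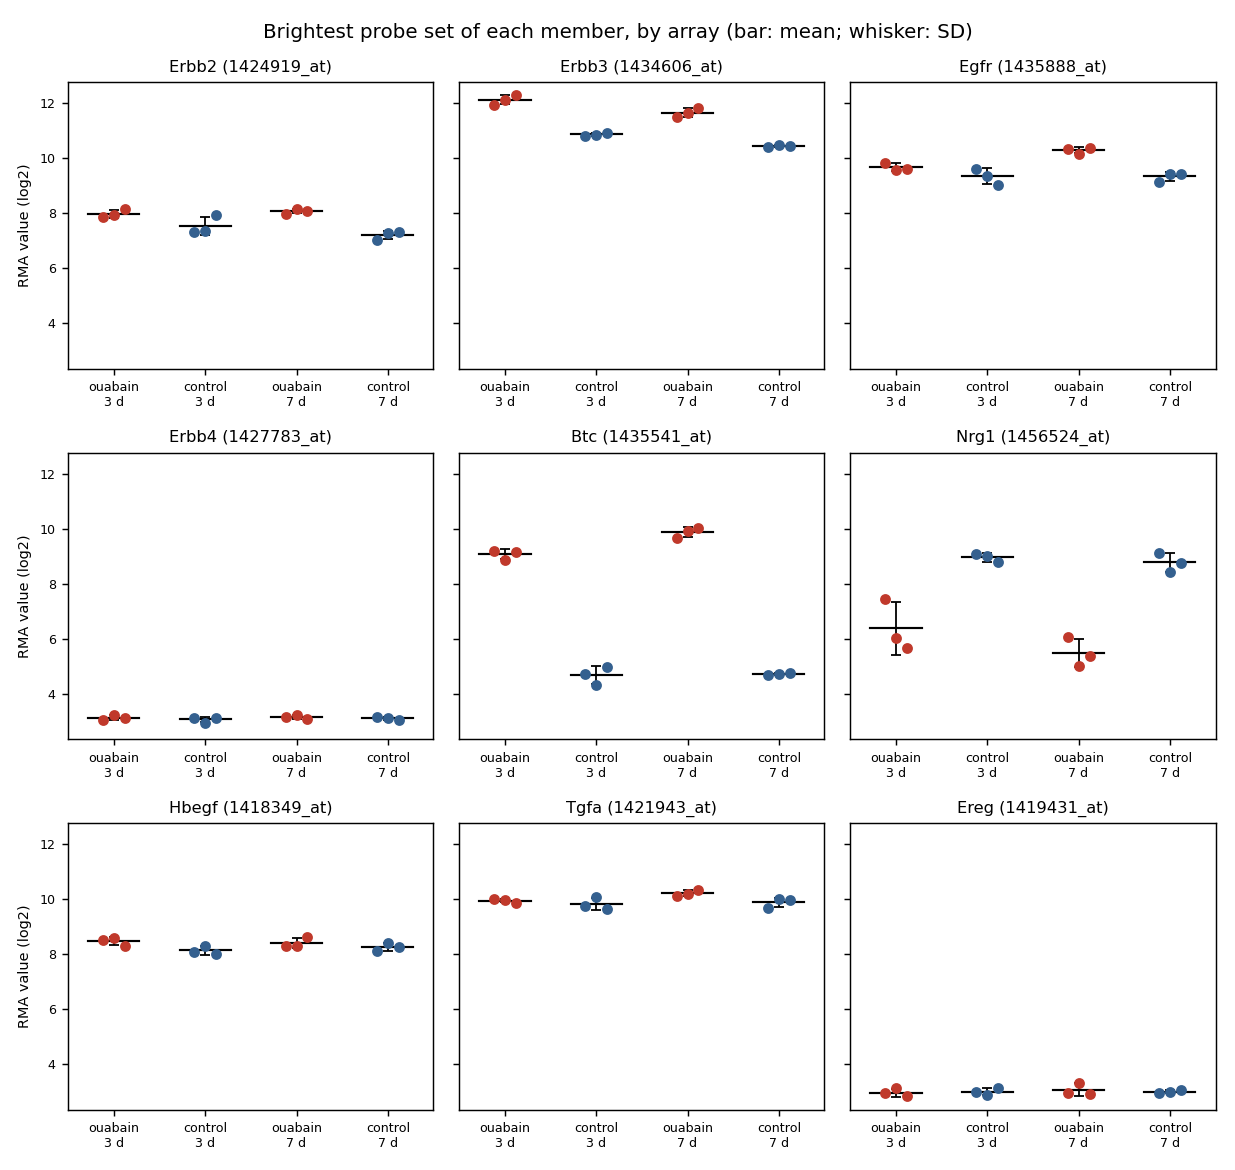
RMA value (log2) of the brightest probe set of each of the 9 measured members by array, with ouabain arrays in red and control arrays in blue at 3 days and then 7 days; bars are means and whiskers SDs over 3 arrays, and heights are not comparable between panels. Btc in ouabain arrays is near 9 to 10 and Nrg1 near 5 to 7.5, and Erbb4 and Ereg stay near 3 in every group.

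The 3-day and 7-day responses were also set against each other. None of the 20 member probe sets passed (lowest adjusted p = 0.141, for Egfr 1424932_at), and 0.853% of all probe sets passed. At the looser threshold of an unadjusted p under 0.05 there were 7. No share of all probe sets at that threshold is given here, so this count has no background to be read against. Those 7 were 4 probe sets of Egfr, both of Btc and Hbegf 1418350_at. The 7-day response minus the 3-day response was 0.63, 0.70 and 0.42 for the 3 brightest Egfr probe sets and -0.32 for 1432647_at. A block for equal replicate numbers and a variance trend with robust moderation also gave 0. Between control nerves, 7 days against 3 days, 0 of 20 were called by limma. The methods' unpaired test gave 0 as well at unadjusted p, where a fold above 1.5 was also needed. In limma 2 of the 20 had an unadjusted p under 0.05, whatever the fold. Those 2 were Erbb3 1434606_at, with 10.45 ± 0.04 at 7 days and 10.87 ± 0.06 at 3 days (SD, n = 3 arrays), a difference of -0.42 (adjusted p = 0.434), and Tgfa 1450421_at, with 0.19 (adjusted p = 0.72). Over all probe sets 0.0111% were called between these controls, which is a share of limma calls and not a background for the 2 at unadjusted p.

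The other genes of the pathway were counted by role, over lists of 83 genes of which 75 were measured. Of these 75 genes 19 were called at 3 days (14 higher, 5 lower) and 18 at 7 days (13 higher, 5 lower), whereas over all 18193 genes 15.6% were called at 3 days (7.51% higher, 8.06% lower) and 15.8% at 7 days (7.57% higher, 8.2% lower). Of the 5 other ligands, Nrg3 was the only one called. Of 7 sheddases and trafficking proteins, none was lower, and the higher ones numbered 3 at 3 days and 2 at 7 days. Adam17, the sheddase of several EGF-related ligands, read 9.82, 9.97 and 10.08 in ouabain-treated nerves and 9.14, 9.17 and 9.06 in control nerves at 3 days, and differed by 0.83 (adjusted p = 3.44e-05) and 0.60 (adjusted p = 0.000393). The 7-day call of Adam17 fell below 1.5-fold without ouabain replicate 3 (0.54) or control replicate 1 (0.56). Rhbdf1, an iRhom protein that escorts Adam17, differed by 1.41 (adjusted p = 1.07e-05) at 3 days and 1.24 (adjusted p = 2.62e-05) at 7 days. Among the uncalled genes of this list were Rhbdf2 (-0.04 at 3 days and 0.16 at 7 days), Adam10 (0.20 and -0.03) and Bace1 (-0.32 and -0.28). Adam19, a sheddase of neuregulins, differed by 0.65 (adjusted p = 0.00148) at 3 days, a call lost without control replicate 3 (0.56), and by 0.46 (adjusted p = 0.0139) at 7 days, under the fold threshold.

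Of 6 partners of the receptors, 1 was higher and 1 lower at 3 days, and 1 was higher at 7 days. Cd44, a hyaluronan receptor that binds ErbB receptors and is also made by macrophages, read 12.09, 12.20 and 12.48 in ouabain-treated nerves and 10.75, 10.59 and 10.88 in control nerves at 3 days, a difference of 1.52 (adjusted p = 3.38e-06), and 1.11 (adjusted p = 3.06e-05) at 7 days. Dlg4, the synaptic scaffold PSD-95 that binds ErbB4, differed by -0.71 (adjusted p = 7.31e-05) and -0.47 (adjusted p = 0.00145), the second under the fold threshold, while its second brightest probe set was called lower at 7 days too (-0.63, adjusted p = 0.00882). Of 20 inhibitors, 2 were higher at 3 days, and 2 were higher and 2 lower at 7 days. Lrig1, which promotes breakdown of ErbB receptors, read 9.96, 9.93 and 10.10 in ouabain-treated nerves and 9.09, 9.16 and 9.34 in control nerves at 7 days, a difference of 0.80 (adjusted p = 0.000768), against 0.52 (adjusted p = 0.0114) at 3 days, which passed the fold threshold when control replicate 2 was left out (0.67). Spred1, an inhibitor of the Ras pathway, differed by 0.67 (adjusted p = 0.000391) at 3 days and 0.52 (adjusted p = 0.00225) at 7 days, the second under the fold threshold except without ouabain replicate 1 (0.61). Spry3, a Sprouty protein, differed by -0.53 (adjusted p = 0.00855) and -0.80 (adjusted p = 0.000553). Its 7-day values in ouabain-treated nerves, 4.35, 4.32 and 4.35, lay near the lower quartiles of their arrays, so the size of this difference is uncertain. The 3-day difference of Spry3 was under the fold threshold and passed without control replicate 3 (-0.59) or ouabain replicate 1 (-0.62).

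Dusp4, a phosphatase that switches off ERK kinases, was higher at 3 days and lower at 7 days. It read 8.00, 8.17 and 7.95 in ouabain-treated nerves and 7.27, 7.59 and 6.98 in control nerves at 3 days, a difference of 0.76 (adjusted p = 0.00889). The 7-day values were 6.52, 6.39 and 7.08 in ouabain-treated nerves and 7.42, 7.37 and 7.16 in control nerves, a difference of -0.66 (adjusted p = 0.0197). The 7-day call was lost without any 1 of ouabain replicates 1 and 2 and control replicates 1 and 2, with differences between -0.63 and -0.52.

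Of 26 adaptors and kinases, 2 were higher and 2 lower at 3 days, and 4 were higher and 1 lower at 7 days. Gab2, a docking protein downstream of receptor kinases, differed by 0.98 (adjusted p = 2.19e-05) and 1.02 (adjusted p = 1.66e-05). Nras, a Ras GTPase, differed by 0.99 (adjusted p = 1.41e-05) at 3 days and 0.36 (adjusted p = 0.0144) at 7 days, under the fold threshold. All 3 Nras probe sets were called at 3 days, and the dimmest also at 7 days, by 0.77 (adjusted p = 0.000326). For the brightest, the 7-day response minus the 3-day response was -0.63 (adjusted p = 0.0565), just over the threshold, and it passed with the filter on dim probe sets (adjusted p = 0.0342), both rescalings (0.0381 and 0.0367) and trend moderation (0.0235). Pik3cb, a catalytic subunit of PI3-kinase, differed by -1.05 (adjusted p = 0.000572) at 3 days and -0.54 (adjusted p = 0.0331) at 7 days, which passed the fold threshold when ouabain replicate 3 of that day was left out (-0.64). Shc4, an adaptor of the Shc family, read 9.61, 9.65 and 9.96 in ouabain-treated nerves and 10.57, 10.62 and 10.49 in control nerves at 7 days, a difference of -0.82 (adjusted p = 7.23e-05), and differed by -0.10 (adjusted p = 0.589) at 3 days.

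Of 11 genes that ERK signaling is known to induce in other cells, 6 were higher and 1 lower at 3 days, and 4 were higher and 1 lower at 7 days. Fos, an immediate early transcription factor, read 11.97, 12.08 and 12.31 in ouabain-treated nerves and 8.59, 9.53 and 9.46 in control nerves at 3 days, and 11.81, 11.75 and 12.08 in ouabain-treated nerves and 9.26, 9.24 and 10.09 in control nerves at 7 days. Its differences were 2.93 (adjusted p = 8.41e-06) and 2.35 (adjusted p = 3.99e-05). Ccnd1, the G1 cyclin D1, read 11.47, 11.98 and 12.13 in ouabain-treated nerves and 8.83, 8.92 and 8.43 in control nerves at 3 days, and 10.57, 10.51 and 10.62 in ouabain-treated nerves and 8.94, 9.11 and 9.12 in control nerves at 7 days. The ouabain arrays were above the controls at both days and the gap was narrower at 7 days, 1.51 (adjusted p = 3.3e-05) against 3.14 (adjusted p = 2.14e-07) at 3 days. Fosl1, a partner of Jun proteins, differed by 2.08 (adjusted p = 2.7e-05) at 3 days and 0.07 (adjusted p = 0.855) at 7 days, and its dimmer probe set was not called at 3 days either (0.22, adjusted p = 0.245). Egr2, which in Schwann cells drives myelin genes and stands also in the list of myelinating Schwann cells, was the lower one, with -0.78 (adjusted p = 0.0169) at 3 days and -1.74 at 7 days (adjusted p = 7.56e-05). Its 3-day call was lost without ouabain replicate 1 (-0.60) or control replicate 2 (-0.65). These 11 genes answer to many signals besides ErbB receptors. All 9 measured markers of dividing cells were called higher at 3 days by limma and 0 at 7 days (0 with an unadjusted p under 0.05). The 7-day count turned on control replicate 1, whose markers summed to 2950, against 795 and 696 in the other control arrays and 933 to 1340 in the ouabain arrays. Without it, an alternative chosen after seeing the data, 2 of 9 were called higher at 7 days and 7 had an unadjusted p under 0.05. At 3 days the markers, Ccnd1 and Fosl1 were all higher in ouabain-treated nerves. Control replicate 1 at 7 days was not high in Ccnd1 (8.94, against 9.11 and 9.12) or in Fosl1 (4.38, against 4.81 and 4.27). The part of the markers in the Ccnd1 and Fosl1 differences was not tested.

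**Figure D5:**
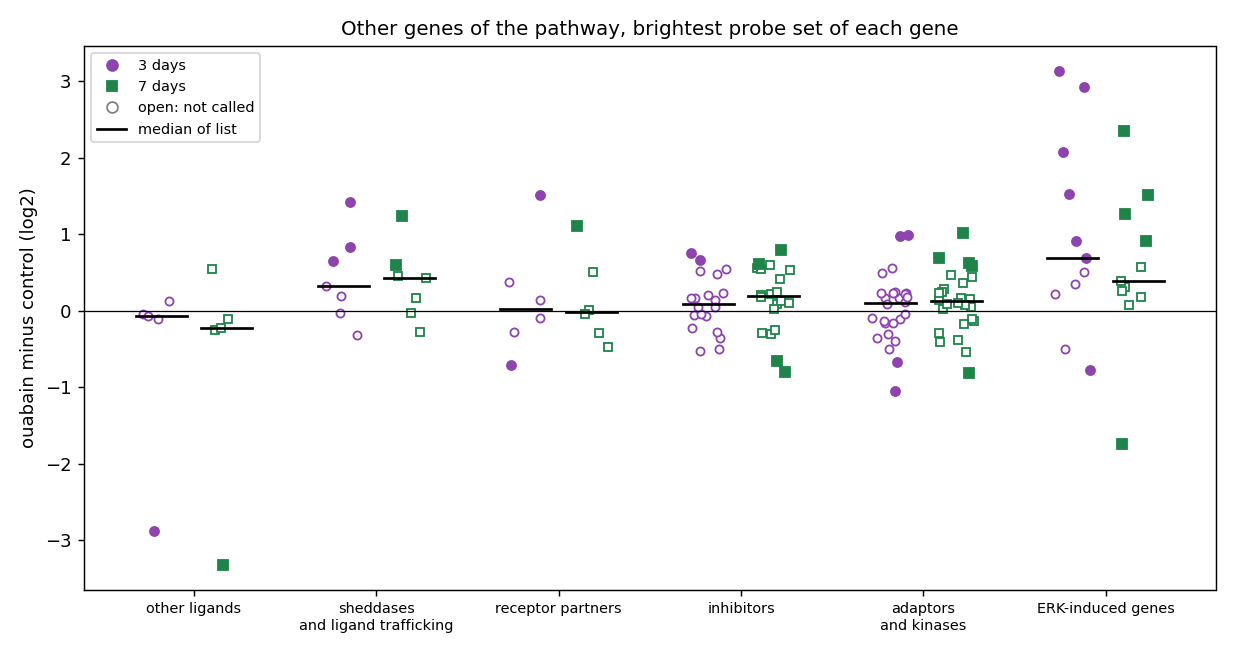
Log2 difference, ouabain minus control, of the brightest probe set of the 75 measured pathway genes, by role, at 3 days (circles, left) and 7 days (squares, right); filled points were called and black bars are list medians. The single low points of the other ligands are Nrg3, and the highest points of the ERK-induced genes are Ccnd1 (3.14) and Fos (2.93) at 3 days.

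For each member that was called by its brightest probe set, the 4 genes whose values ran most like it over the 12 arrays were found among all 18193 genes by Pearson's r, as a description, since every gene with a large response to ouabain will correlate. Nrg1 ran with Rab6b (r = 0.996), a Rab GTPase of neurons, Csrnp3 (0.996), Cadps (0.995), which primes vesicles for release, and Crbn (0.995). Erbb3 ran with Parp3 (0.995), Ecm1 (0.987), Pla1a (0.984) and Flna (0.983), of which Flna encodes the actin crosslinker filamin A. Btc ran with Cadm4 (0.993), a cell adhesion molecule of Schwann cells, Gadd45a (0.993), Tmem158 (0.991) and Ltc4s (0.991), the leukotriene C4 synthase. The values for Erbb2 were lower, with Stat6 (0.975), Sox13 (0.975), Sh2b3 (0.971) and Arf4 (0.963), and those for Egfr were Pdgfd (0.971), a PDGF ligand, Selenov (0.964), P3h3 (0.952) and Grb10 (0.952), an adaptor that binds receptor kinases. Among these 20 genes, Tmem158 differed most at 3 days, by 4.56, and at 7 days, by 4.93, and Crbn differed least for a gene like Nrg1, by -0.52 and -0.62.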

How the data were processed

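Total RNA of pooled modiolus preparations from ouabain-treated and control ears was hybridised to Affymetrix whole-genome mouse arrays, 3 per group. Per the labels and the methods, the authors made the deposited log2 values with RMA in Affymetrix Expression Console (versions not given), which corrects background, normalizes by quantiles over arrays and summarizes each probe set; this compresses differences of dim probe sets. The RNA input is given differently in the methods and in the sample labels. MAS5 detection calls were not used here. Arrays of other experiments of the study are not analysed here.

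Of 45101 probe sets, 64 controls were left out and 45037 tested; 34945 carry 1 gene symbol, 932 several and 9160 none, and 34741 of the named ones matched the RefSeq table by Entrez identifier. Probe sets without exactly 1 symbol were tested but stand for no gene. With R 4.3.3 and limma 3.58.1, 1 model of 4 group means with empirical Bayes moderation gave differences, SEs and 95% intervals, after a check on simulated data; figures and sequence matches used Python 3.11.15. The number of arrays limits the precision. The genes named are all probe sets of the 10 members and the 4 genes most like each called member. Of each other pathway list, up to 4 called genes (or 2 uncalled ones) were named, those with the largest absolute change at either day. Members and lists were chosen with earlier results of these data known. Alternatives were the methods' unpaired t-test with unadjusted and adjusted p and its unequal-variance form, the 6 arrays of a day, a replicate block, no fold threshold or a fold above 2, a filter that kept the 24037 probe sets reading over 6 (log2) on 3 or more arrays, a variance trend with robust moderation, quantile normalization applied a second time, each array's 75th percentile subtracted, the mean over a gene's probe sets, and each array left out in turn.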

Additional observations from a re-analysis of the deposited data

Results flagged for a closer look

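Among the members and named pathway genes, 4 had a 7-day response that differed from the 3-day response in limma's test of the difference itself (Benjamini-Hochberg adjusted p over all probe sets), and none was a member. Over the 75 pathway genes 6 passed this test (8%), against 1.24% of all genes, and in 5 of them the response was lower at 7 days. These lists were chosen with earlier results of these data known, so the 2 shares are given as a description. The 7-day minus 3-day log2 difference was -1.63 for Ccnd1 (SE 0.23, adjusted p = 0.00747) and -2.003 for Fosl1 (SE 0.31, adjusted p = 0.0115). Both passed with each of the 12 arrays left out (highest adjusted p = 0.029 for Ccnd1 and 0.0408 for Fosl1). Fosl1 was not kept by the filter on dim probe sets, since fewer than 3 arrays read over 6 (log2). For the dimmer Fosl1 probe set the 7-day minus 3-day difference was -0.12 (adjusted p = 0.834). It was -1.42 for Dusp4 (SE 0.26, adjusted p = 0.0279), where the response itself had opposite signs, and this call was lost for 8 of the 12 arrays left out (highest adjusted p = 0.0888). For Shc4 it was -0.73 (SE 0.14, adjusted p = 0.0355), lost for 9 of the 12 arrays left out (highest adjusted p = 0.107). With equal replicate numbers as a block the adjusted p was 0.0616 for Dusp4 and 0.091 for Shc4. Cblb and Myc also passed the threshold but were not among the named genes, which were themselves picked by the size of their changes in these data. Cblb, which encodes a ubiquitin ligase, was the 1 gene with a higher response at 7 days. Control replicate 1 at 7 days, which stood high in markers of dividing cells and of neutrophils and marrow, enters all these differences. Without it the values were -1.69 for Ccnd1 (adjusted p = 0.015) and -2.06 for Fosl1 (adjusted p = 0.0234).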

How the results depend on the processing

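The count of called members was 5 of 20 probe sets at 3 days and 8 at 7 days. It fell to 1 at 3 days under the unequal-variance t-test with adjusted p, where 562 of all 45037 probe sets were called. With a fold above 2 it fell to 5 at 7 days, where 2266 of all probe sets were called. With 1 array left out the count lay between 5 and 6 at 3 days and between 7 and 8 at 7 days. For the change of the response between the days it ranged from 0 to 1, and for the control nerves it stayed at 0. The count of called pathway genes was 19 at 3 days and 18 at 7 days. It was 6 and 7 under the unequal-variance test, 35 and 38 with no fold threshold, and 8 and 8 with a fold above 2. Over all 45037 probe sets, counted as probe sets and not as genes, 562 and 1851 were called under the unequal-variance test. With no fold threshold 10569 and 11451 were called, and with a fold above 2 there were 2547 and 2266. With 1 array left out the count of pathway genes ranged from 19 to 22 and from 16 to 22. Under the methods' t-test with adjusted p, Nrg1 at 3 days had an adjusted p of 0.0614, and the unequal-variance form gave 0.175 for Nrg1 at 3 days, 0.118 for Hbegf 1418350_at and 0.07 for Btc 1421161_at at 3 days, 0.0635 and 0.0536 for Erbb3 1434606_at at 3 and 7 days, and 0.0522 for Erbb2 at 7 days.

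Signs turned only for differences near 0 that were never called. Subtracting the 75th percentile gave 0.00014 for Egfr 1454313_at at 7 days, 0.0027 for Egfr 1457563_at at 3 days and 0.0049 for Ereg at 3 days, and a second quantile normalization gave -0.0071 for Egfr 1451530_at at 3 days. With 1 array left out, Egfr 1454313_at ranged from -0.11 to 0.10 and Tgfa 1421942_s_at from -0.20 to 0.073 at 7 days, Egfr 1451530_at from -0.12 to 0.11 and Egfr 1457563_at from -0.11 to 0.044 at 3 days, Ereg at 3 days from -0.11 to 0.036 and Ereg at 7 days from -0.062 to 0.15, and Fosl1 from -0.051 to 0.23 at 7 days. The causes of these changes were not tested.

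The replicate numbers were not taken as pairs, because neither labels nor methods state it. The same-number correlations of deviations were 0.33, 0.09 and 0.18 at 3 days and 0.28, 0.16 and 0.02 at 7 days. Those of unequal numbers lay between -0.27 and 0.15 at 3 days and between -0.33 and 0.15 at 7 days. All same-number values were positive, so the correlations are no reason against pairs, and whether equal numbers mark the same animals is not known. With equal replicate numbers as a block, 5 member probe sets at 3 days and 8 at 7 days were called, and 19 pathway genes at each day. The block changed no call of a single member or named gene against control.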
